A study of Mus musculus with 3 samples.

Results

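Genes for the digestive enzymes of the exocrine pancreas were examined in 3 array libraries of mature medullary thymic epithelial cells (mTECs). The set was a list of 9 gene symbols, Ctrb1, Ctrl, Cpa1, Cpb1, Pnlip, Pnliprp1, Pnliprp2, Cel and Clps, matched to the probe sets of the array. Of the 9 genes, 8 had a probe set with a single gene symbol, and each of these had 1 such probe set, among 19937 genes so covered. No probe set used here carried the symbol Pnlip, and its expression was not analysed here.

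The first library, AireKO, came from Aire-/- mice. The second, Sirt1cKO, came from Sirt1fl/fl mice with Foxn1-Cre, in which Sirt1 is deleted where Foxn1 is active, that is in thymic epithelium as a whole. The third, called WT in the labels, came from Sirt1fl/fl mice without Cre and served as the control of both knockouts. All were labelled C57b/6, mice were 6 weeks old, typically 3 were pooled, and cells were sorted as EpCAM+, CD45-, Ly51low and MHC-II high. With 1 library per genotype there is no replicate spread, so every difference describes a pair of libraries and no p-value is given.

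Acinar cells of the pancreas make these proteins for secretion into the gut. Chymotrypsinogens and procarboxypeptidases are stored as inactive zymogens and cut proteins after activation, while lipases and their cofactor colipase digest dietary fat. In the thymus mTECs express many such tissue-restricted genes at low frequency, which exposes developing T cells to peripheral self-antigens. Aire, a nuclear regulator, promotes the expression of a large share of them, and Sirt1 is an NAD-dependent protein deacetylase. Setting each knockout beside WT asks how the loss of either protein alters such antigens in mTECs.

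In acinar cells these genes are bound by PTF1, a complex of Ptf1a, an E protein and Rbpjl that recognises an E-box (CANNTG) close to an Rbpj motif (TGGGAA). Of the 9 genes, 8 had a promoter in the RefSeq table (GRCm38.p6), from 250 bases before to 50 bases after the start site. The promoters of Ctrb1 and Cel are shown because these genes had lower signal in both knockout libraries, that of Ctrl because this gene holds the same letters without such a difference, and that of Cpa1 because its motif pair is the next closest, although its signal was too dim for a fold. The 250 bases before each start site are printed on the strand of the gene, with E-boxes and Rbpj motifs on either strand in capitals. They lie at chr8:111691011-111691260 (minus strand) for Ctrb1, chr2:28563404-28563653 (minus strand) for Cel, chr8:105933863-105934112 (minus strand) for Ctrl and chr6:30638968-30639217 (plus strand) for Cpa1.
Ctrb1: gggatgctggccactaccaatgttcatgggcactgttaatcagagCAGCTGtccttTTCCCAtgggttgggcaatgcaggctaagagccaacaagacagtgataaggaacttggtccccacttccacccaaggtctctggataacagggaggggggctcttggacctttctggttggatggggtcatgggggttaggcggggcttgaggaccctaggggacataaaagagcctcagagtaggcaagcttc
Cel: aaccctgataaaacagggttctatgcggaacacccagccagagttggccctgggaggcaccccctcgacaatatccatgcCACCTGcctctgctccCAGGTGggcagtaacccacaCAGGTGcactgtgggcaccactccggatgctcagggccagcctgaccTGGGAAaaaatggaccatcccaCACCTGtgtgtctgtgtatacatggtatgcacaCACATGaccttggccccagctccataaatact
Ctrl: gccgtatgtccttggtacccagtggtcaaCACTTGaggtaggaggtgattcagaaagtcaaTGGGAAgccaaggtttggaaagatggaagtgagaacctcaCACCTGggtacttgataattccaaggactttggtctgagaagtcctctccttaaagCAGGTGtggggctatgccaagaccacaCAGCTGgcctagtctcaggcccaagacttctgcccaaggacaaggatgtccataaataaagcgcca
Cpa1: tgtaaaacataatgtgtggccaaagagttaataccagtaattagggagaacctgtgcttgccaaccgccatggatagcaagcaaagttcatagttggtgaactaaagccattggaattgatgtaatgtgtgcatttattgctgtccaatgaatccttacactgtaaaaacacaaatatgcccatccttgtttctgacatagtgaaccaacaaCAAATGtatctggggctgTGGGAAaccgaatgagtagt

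An E-box and an Rbpj motif lay within 30 bases of each other in 5 of the 8 promoters, against 6.97% of all 32851 RefSeq promoters of 300 bases. The closest pair stood in the Ctrb1 promoter, where 5 bases separate an E-box that begins 205 bases before the start site from the Rbpj motif. The gap was 12 bases in Cpa1, 16 in Cel, 22 in Pnliprp1 and 26 in Ctrl. E-boxes alone are common: 7 of 8 promoters had at least 1, against 72.3% of all promoters. The Rbpj motif was present in 6 of 8, against 25.6%. The letters AAGGTCA, the monomer site of the nuclear receptor Nr5a2, occurred on either strand in 1 of 8, that of Cel, where they overlap an E-box, against 4.72% of all. Pnlip held an Rbpj motif and no E-box. Pairs occur both in Ctrb1 and Cel and in Ctrl, whose measured level was under 2-fold from WT in both knockouts. A match describes the letters in these windows and does not show binding.

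**Figure D1:**
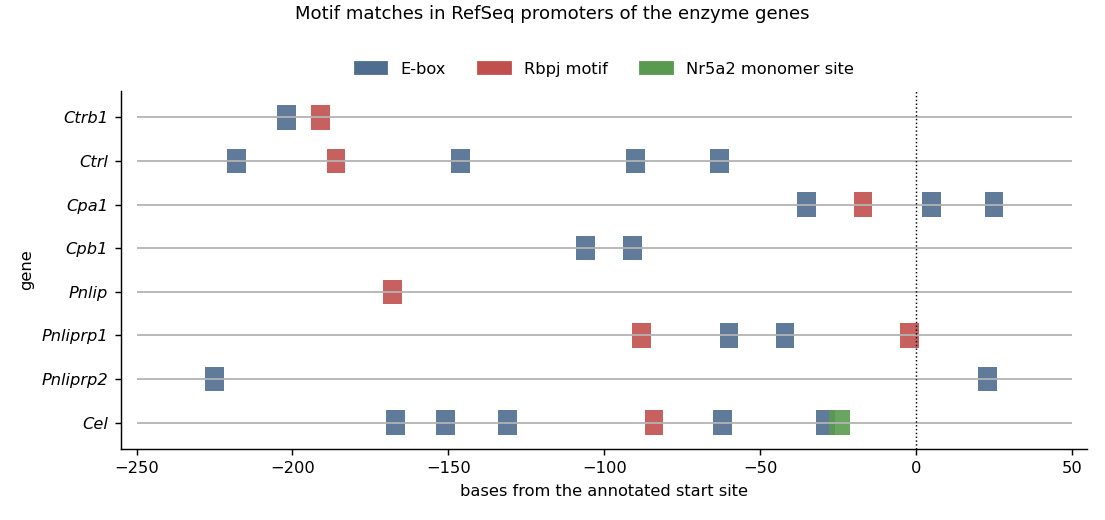
Motif matches on either strand in the RefSeq promoters of 8 enzyme genes, by distance in bases from the annotated start site (dotted line), with E-boxes in blue, Rbpj motifs in red and the Nr5a2 site in green. The Ctrb1 pair lies 5 bases apart, and both Cpb1 and Pnliprp2 lack the Rbpj motif.

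The libraries differed in ways that bear on dim genes. Background was taken as the 95th percentile of 1027 olfactory receptor genes, a family little used outside olfactory tissue, and stood at log2 intensity 6.89 in AireKO, 6.34 in Sirt1cKO and 6.02 in WT. All 19 mature medullary marker genes with a probe set were above background in all 3 libraries. The free-text descriptions of the knockout libraries name each other's genotype, in conflict with title and genotype fields. Aire stood at 11.55 in AireKO, 11.24 in Sirt1cKO and 11.97 in WT, and Sirt1 at 11.42 in AireKO, 11.27 in Sirt1cKO and 11.40 in WT. A probe set outside the deleted part of a gene reports nothing of the deletion, so neither label is checked by these levels. AireKO and Sirt1cKO below mean the libraries so titled. Xist, the RNA of the inactive X, stood at 6.75 in AireKO, 11.46 in Sirt1cKO and 12.17 in WT, and the Y-linked gene Eif2s3y at 9.75 in AireKO, 8.92 in Sirt1cKO and 4.23 in WT. Sex composition therefore differed along with genotype and cannot be told apart from it. H2-Ea, an MHC class II gene silent in the C57BL/6 haplotype, was named here after its value was seen. It stood at 13.23 in AireKO, against 5.90 in Sirt1cKO and 5.60 in WT. The AireKO value is at odds with the shared C57b/6 label. Genetic background may therefore differ along with genotype and cannot be told apart from it. The relation of H2-Ea to the enzyme genes was not tested.

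Above background in all 3 libraries were Ctrb1, Ctrl and Clps. Cel and Cpa1 were above it in WT alone, Cpa1 by 0.05 on the log2 scale, and Pnliprp2 in Sirt1cKO and WT. Cpb1 and Pnliprp1 were within background in every library. Levels are log2 probe-set intensities, and levels of different probe sets are not compared with each other.

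**Figure D2:**
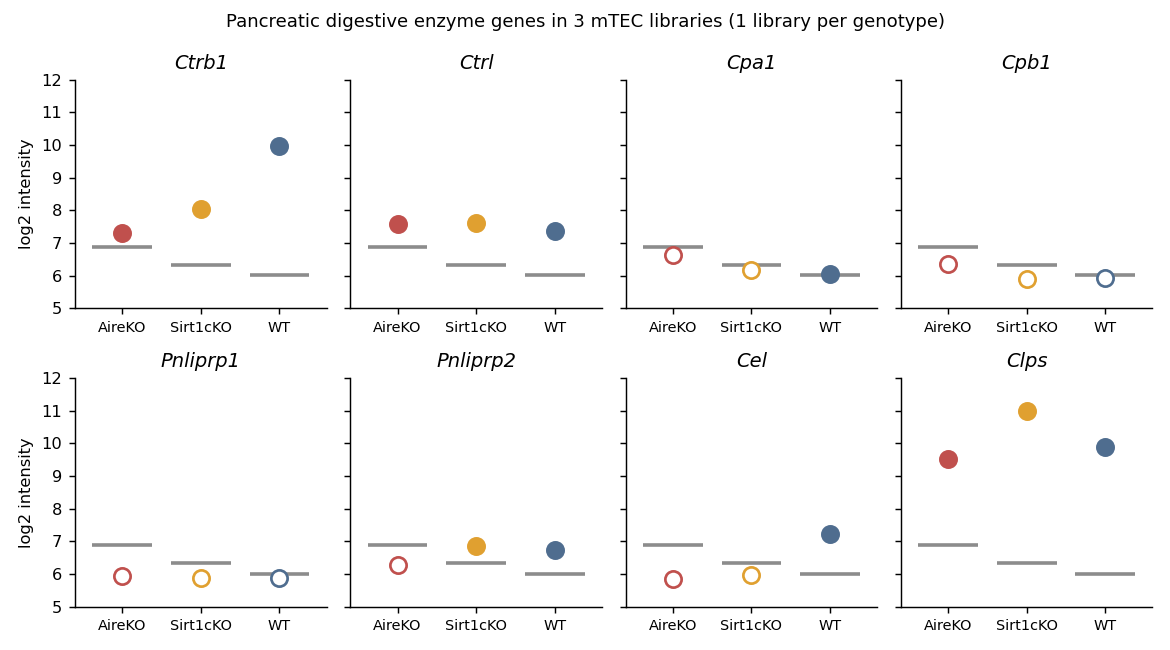
Log2 intensity of the 8 enzyme genes with a probe set in the AireKO, Sirt1cKO and WT libraries, 1 library each, with the background level of each library as a grey bar and open circles for values within it. Ctrb1 stands at 7.32, 8.06 and 9.98, while Clps stands highest in Sirt1cKO at 10.98.

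Of the serine proteases, Ctrb1 was far lower in both knockouts. It encodes chymotrypsinogen B, a major zymogen of pancreatic juice. Its level was 7.32 in AireKO, 8.06 in Sirt1cKO and 9.98 in WT, so WT was highest and AireKO lowest. The difference from WT was -2.66 on the log2 scale in AireKO, a 6.32-fold lower intensity, and -1.93 in Sirt1cKO, 3.80-fold lower. Among 14496 genes above background in WT, 36 including Ctrb1 had a difference at least as low in AireKO, and 7 including Ctrb1 in Sirt1cKO. These counts use measured differences, also for genes within background in a knockout. The rank of Ctrb1 within a library, which no rescaling of that library as a whole can alter, was at the 54.8th percentile of all genes in AireKO, the 67.7th in Sirt1cKO and the 92.6th in WT. Ctrb1 was the 1 gene of the 8 at least 2-fold lower in either comparison with WT, where 4.62% of all genes on the array were so in AireKO and 0.948% in Sirt1cKO. Fewer cells with the transcript and less transcript per cell cannot be told apart in such sorted pools.

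Ctrl, which encodes a chymotrypsin-like protease, did not share that pattern. It stood at 7.60 in AireKO, 7.61 in Sirt1cKO and 7.38 in WT. The differences from WT were 0.22 and 0.23, well under 2-fold and above 0 under every scaling tried. The 2 chymotrypsin genes of the set thus differed in pattern, with Ctrb1 at least 2-fold lower in both knockouts and Ctrl under 2-fold. Ctrc, a chymotrypsin gene outside the set, stood at 6.96 in AireKO, 6.55 in Sirt1cKO and 6.31 in WT, also under 2-fold. Background was higher in AireKO, at 6.89, and in Sirt1cKO, at 6.34, than in WT, at 6.02. No direction is therefore read for Ctrl or Ctrc. The promoters of Ctrb1 and Ctrl both hold a pair of E-box and Rbpj motif.

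The carboxypeptidase zymogens were not resolved. Cpa1, procarboxypeptidase A1, stood at 6.63 in AireKO and 6.18 in Sirt1cKO, both within background, and 6.06 in WT. Cpb1, procarboxypeptidase B1, stood at 6.38 in AireKO, 5.90 in Sirt1cKO and 5.92 in WT. No fold is given for either gene, because a drop from their WT levels would lie within background. Their neighbours of the same family on the chromosome were also dim, with Cpa5 beside Cpa1 and Cpa3 beside Cpb1 within background in all 3 libraries.

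Among the lipases, Cel was the gene with the lower signal in the knockouts. It encodes carboxyl ester lipase, which bile salts activate and which also cleaves cholesterol esters. It stood at 5.86 in AireKO and 5.98 in Sirt1cKO, both within background, against 7.23 in WT, where it was above background by 1.21. The measured differences were -1.37 and -1.24, and with the dim values at background Cel was at least 1.27-fold lower in AireKO and at least 1.85-fold lower in Sirt1cKO. A 2-fold decrease was therefore not established in either knockout, although the measured values pointed the same way under each scaling tried.

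Pnliprp1 lies next to Pnlip on the chromosome, and Pnliprp2 lies next to Pnliprp1. Pnliprp2, whose product hydrolyses galactolipids and phospholipids as well as triglycerides, stood at 6.29 in AireKO, within background, 6.86 in Sirt1cKO and 6.75 in WT. Its Sirt1cKO minus WT difference was 0.11, and no fold is given for AireKO, where background lies above its WT value. Pnliprp1, a relative of pancreatic lipase with little lipase activity, stood at 5.95 in AireKO, 5.87 in Sirt1cKO and 5.87 in WT, all within background.

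Clps was higher in Sirt1cKO than in the other libraries. It encodes colipase, the small cofactor that anchors pancreatic lipase to bile salt-covered fat droplets. Its level was 9.53 in AireKO, 10.98 in Sirt1cKO and 9.90 in WT, so Sirt1cKO was highest and the other libraries lay close together. The AireKO minus WT difference was -0.37, 1.29-fold lower and short of the 2-fold mark, and shrank to -0.10 after median centring. In Sirt1cKO Clps was higher by 1.09, or 2.12-fold. It was the 1 gene of the 8 at least 2-fold higher there, where 0.466% of all genes on the array were so, and 0 of 8 were at least 2-fold higher in AireKO, where the share was 1.53%. If the knockout labels were exchanged, as the description fields have it, the higher Clps level would belong to AireKO, while Ctrb1 would remain lower in both knockouts. Its chromosomal neighbours Clpsl2 and Lhfpl5 were within background in both knockouts, so no fold is given for them.

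**Figure D3:**
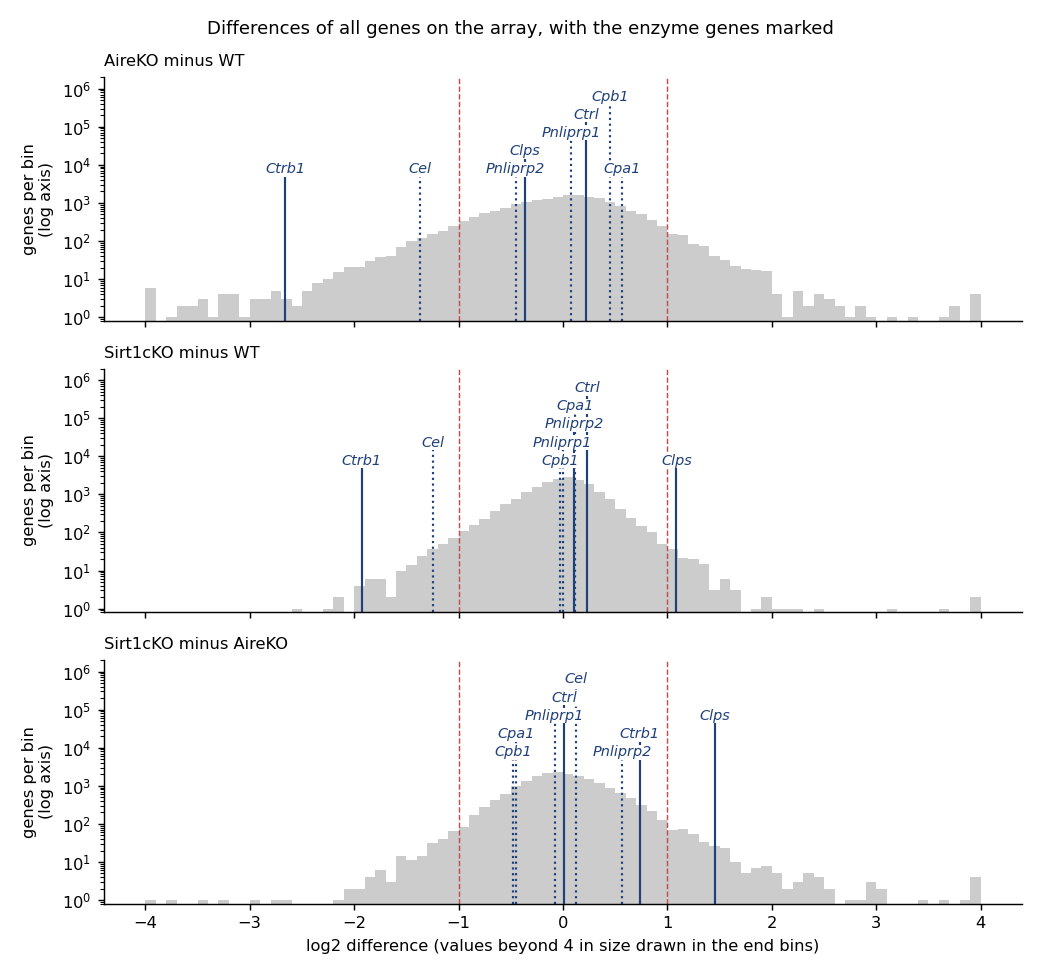
Number of genes (log axis) by log2 difference in 0.1-wide bins for all 19937 genes, with the enzyme genes as blue lines, dotted where either library was within background, and dashed red lines at 2-fold. Ctrb1 lies in the lower tail of both comparisons with WT, and Clps in the upper tail of Sirt1cKO minus WT and Sirt1cKO minus AireKO.

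A direct comparison of the knockouts sets no value against WT, although the rank of Clps below is over genes above background in WT. Clps had a log2 intensity of 10.98 in Sirt1cKO, against 9.53 in AireKO. It was 2.74-fold higher in Sirt1cKO, by 1.45, and was the 1 gene of the 8 at least 2-fold higher, against 1.39% of all genes. Of the 14496 genes above background in WT, 99 including Clps had a measured difference at least as high, also counting genes within background in a knockout. Ctrb1 had 8.06 in Sirt1cKO, against 7.32 in AireKO, and was 1.66-fold higher in Sirt1cKO and short of 2-fold. Ctrl differed by 0.01. No fold could be given for the other 5 genes, and 0 of 8 were at least 2-fold lower, against 0.557% of all genes.

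Over the 8 genes, the median difference was -0.14 in AireKO and 0.05 in Sirt1cKO, beside 0.02 and 0.00 over all genes. These medians include genes within background, since no fold was available for 4 of the 8 in AireKO and 3 of the 8 in Sirt1cKO. The 3 genes above background in both AireKO and WT spanned -2.66 to 0.22, and the 4 above it in both Sirt1cKO and WT spanned -1.93 to 1.09. Ctrb1 ranged from -2.66 to -2.39 in AireKO and from -1.93 to -1.83 in Sirt1cKO over the deposited, quantile, loess and median-centred values, and Clps in Sirt1cKO from 1.09 to 1.19. Median centring added 0.27 to every AireKO minus WT difference. The balance of genes at least 2-fold lower and higher over all measured genes depended on scaling. In AireKO it was 922 lower and 306 higher as deposited, 655 and 396 after quantile normalization, 614 and 408 after loess, and 449 and 672 after median centring. In Sirt1cKO it was 189 lower and 93 higher as deposited, and 127 and 130 after median centring.

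**Figure D4:**
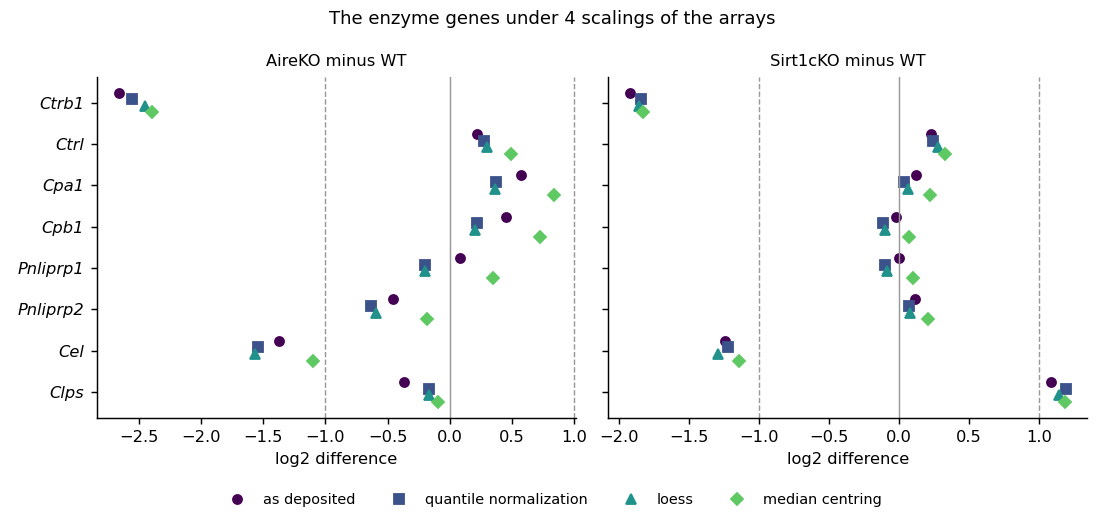
Log2 difference of each enzyme gene from WT in AireKO (left) and Sirt1cKO (right) under 4 scalings of the arrays, with dashed lines at 2-fold. Ctrb1 stays beyond 2-fold in all of them, from -2.66 to -2.39 in AireKO, and Cel stays below 0, although its knockout values lie within background.

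Among the other genes of the exocrine pancreas, a few were at least 2-fold lower and 0 were higher than in WT as deposited. Of 20 other acinar digestive enzymes listed, 15 had a probe set, and 1 of the 15 was at least 2-fold lower in each comparison, beside 4.62% of all genes in AireKO and 0.948% in Sirt1cKO. No fold could be given for 8 of the 15 in AireKO and 5 in Sirt1cKO. The median over the 15 was -0.13 in AireKO and 0.07 in Sirt1cKO. The AireKO gene was Pla2g1b, the secreted pancreatic phospholipase, which stood at 7.57 in AireKO, 9.54 in Sirt1cKO and 10.16 in WT. It was 6.04-fold lower in AireKO, close in size to Ctrb1, and 1.54-fold lower in Sirt1cKO. The Sirt1cKO gene was Cela3b, a pancreatic elastase, which stood at 5.76 in AireKO and 6.02 in Sirt1cKO, both within background, and 7.34 in WT. It was at least 2.00-fold lower in Sirt1cKO, a mark it missed after quantile normalization and median centring, and at least 1.37-fold lower in AireKO. Of the other elastases and trypsins, Cela2a stood at 7.57 in AireKO, 7.23 in Sirt1cKO and 6.72 in WT. It was short of 2-fold as deposited and 1.12 higher in AireKO after median centring. Background was also higher in AireKO, at 6.89 against 6.02 in WT, so no rise is read from these values. Prss2, an anionic trypsinogen, stood at 7.77 in AireKO, 7.98 in Sirt1cKO and 7.90 in WT. Trypsin genes are near-identical copies, so probes of Prss2 and the Try genes may detect more than 1 of them.

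Proteins that accompany the enzymes in zymogen granules and the acinar lumen had 17 of 19 listed genes on the array. Lower by 2-fold or more were 3 of the 17 in AireKO and 2 in Sirt1cKO, beside the same 4.62% and 0.948% of all genes, and 0 were higher, with medians of 0.09 and -0.07 over all 17. No fold could be given for 9 of the 17 in AireKO and 8 in Sirt1cKO, so these medians include genes within background. Sycn, which encodes the granule protein syncollin, stood at 6.81 in AireKO, within background, 7.01 in Sirt1cKO and 8.25 in WT. It was at least 2.57-fold lower in AireKO and 2.36-fold lower in Sirt1cKO. Dmbt1, a secreted scavenger receptor, stood at 7.35 in AireKO, 7.34 in Sirt1cKO and 8.46 in WT, although its AireKO difference of -1.10 dropped under 2-fold after loess and median centring. Gp2, the major granule membrane glycoprotein of acinar cells and also a microfold cell gene, stood at 9.59 in AireKO, 11.48 in Sirt1cKO and 11.40 in WT, 3.51-fold lower in AireKO and nearly level in Sirt1cKO. The lectin genes Reg1 and Reg3b, the 2 of 6 Reg genes past 2-fold in either comparison, were lower in both knockouts. The shares of all genes lower were the same 4.62% and 0.948%. No fold could be given for 3 of the 6 in either comparison. Reg3g, the other Reg gene with a fold, stood at 12.28 in AireKO, 13.05 in Sirt1cKO and 13.09 in WT, short of 2-fold in both. Reg1 stood at 7.02 in AireKO, 7.08 in Sirt1cKO and 8.93 in WT. Reg3b stood at 6.16 in AireKO, within background, 7.46 in Sirt1cKO and 8.54 in WT, so it was at least 3.15-fold lower in AireKO and 2.12-fold lower in Sirt1cKO. The Reg3b value in Sirt1cKO missed 2-fold after quantile normalization and median centring.

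**Figure D5:**
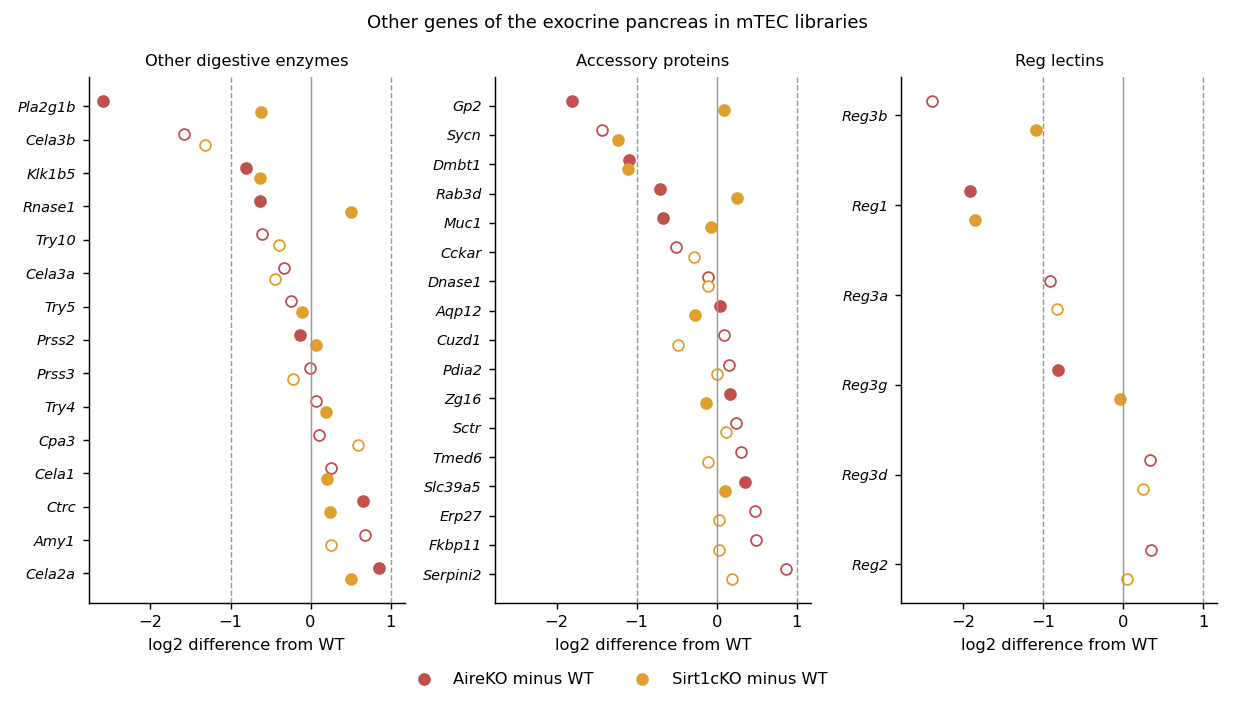
Log2 difference from WT in AireKO (red) and Sirt1cKO (orange) for 15 other digestive enzymes, 17 accessory proteins and 6 Reg lectins, with open circles where either library was within background and dashed lines at 2-fold. Pla2g1b lies at -2.59 in AireKO and -0.62 in Sirt1cKO and Gp2 at -1.81 and 0.09, while Sycn, Dmbt1 and Reg1 lie left of the 2-fold line in both.

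Transcription factors of the acinar lineage were dim or short of 2-fold. Of 14 with a probe set, 0 were at least 2-fold lower or higher in either comparison with WT. A fold could be given for only 5 of them in AireKO and 7 in Sirt1cKO. Over all genes, 4.62% were lower and 1.53% higher in AireKO, and 0.948% and 0.466% in Sirt1cKO. A count of 0 among so few genes does not set them apart from those shares. Ptf1a, the factor that specifies the exocrine pancreas, stood at 5.71 in AireKO, 5.52 in Sirt1cKO and 5.83 in WT, within background in all 3. Bhlha15, the acinar secretory regulator also called Mist1, was likewise within background in every library. Pdx1, a regulator of the whole pancreas, was above it in WT alone, by 0.11. Rbpjl, the acinar partner of Ptf1a, stood at 6.71 in AireKO, within background, 6.70 in Sirt1cKO and 6.44 in WT. Xbp1, a regulator of secretory capacity in many cell types, stood at 9.58 in AireKO, 10.29 in Sirt1cKO and 10.55 in WT, or -0.97 in AireKO against WT.

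The gene with the pattern most like Ctrb1, by Euclidean distance over the differences of the knockouts from WT and among 14495 other genes above background in WT, was Akr1c18, a hydroxysteroid dehydrogenase gene, at a distance of 0.16. S100a8, a calprotectin subunit gene, followed at 0.27 and the neuropeptide gene Nts at 0.28, then Mcpt2, a mast cell protease gene, at 0.31 and Calb2, which encodes calretinin, at 0.33. All but S100a8 were within background in AireKO, so those distances rest on values that are not resolved there. The likeness covers 3 libraries only. Around the median pattern of the 8 genes, 3152 genes lay within a distance of 0.25, and none is named.

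Marker sums of other cells differed between the libraries too. The summed intensity of 10 myeloid and B cell markers was 3529 in AireKO, 4069 in Sirt1cKO and 6081 in WT. Of the 10, 6 were above background in AireKO, 7 in Sirt1cKO and 9 in WT. Lyz2 carried most of the difference in this sum, at 10.76 in AireKO, 11.26 in Sirt1cKO and 12.06 in WT. Against WT, 6 of the 10 were below 0 in AireKO and 7 in Sirt1cKO, while Cd68 was 0.67 higher in AireKO. The summed intensity of 19 mature medullary markers was 59864 in AireKO, 67622 in Sirt1cKO and 83182 in WT. Of these 19, Ccl22, Cldn4, Cldn3, Krt5 and Foxn1 were at least 2-fold lower in AireKO, beside 4.62% of all genes. That count of 5 was 2 after quantile normalization or loess and 1 after median centring. In Sirt1cKO 0 of the 19 were so, beside 0.948% of all genes. Thymocyte markers, of which 4 of 9 were above background in AireKO and 5 in each other library, summed to 1283 in AireKO, 1332 in Sirt1cKO and 1064 in WT, and Cd3d, Rag2, Ptcra and Dntt were within background in all 3. Fibroblast and endothelial markers summed to 5222 in AireKO, 2956 in Sirt1cKO and 2307 in WT. Above background were 6 of 10 in AireKO and 7 in each other library. Dcn carried nearly all of the difference in this sum, at 11.98 in AireKO, 10.87 in Sirt1cKO and 10.08 in WT. Against WT, 2 of the 10 were below 0 in AireKO, with Pdgfrb at -1.02, and 8 in Sirt1cKO. Cortical epithelial markers summed to 12851 in AireKO, 12832 in Sirt1cKO and 13007 in WT, with 7 of 9 above background in AireKO, 8 in Sirt1cKO and 9 in WT. Bright probe sets such as that of Tbata carry these level sums. Behind them, 3 of the 9 were at least 2-fold lower in AireKO, Ctsl at -1.54, Prss16 at -1.11 and Dll4 at -1.03. In Sirt1cKO 0 of the 9 were, beside the same 4.62% and 0.948% of all genes. That count of 3 was 2 after quantile normalization and 1 after loess or median centring. The part of these differences in the Ctrb1 and Cel values was not tested.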

How the data were processed

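RNA was amplified and hybridised to Affymetrix Mouse Gene 1-ST arrays, 1 array per genotype, per the labels and design text. The authors deposited linear probe-set intensities. RMA was applied per the submitters' processing notes, with a version and a return to the linear scale not given in the sources used here. The number of arrays limits precision, and no depth applies.

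Here log2 of the deposited intensities was taken with no further scaling. Of 34760 probe sets, 21640 had 1 gene symbol and were used, the brightest per gene. A value at or below the 95th percentile of olfactory receptor genes in its library was treated as within background and replaced by that percentile, a fold then being "at least". No fold is given where both libraries were within background, or where the replaced value exceeds the bright one. A gene was counted at 2-fold or more. Shares are over all 19937 genes, and the 12556 measured genes reach 6.81, the median of all values, in at least 1 library. Of the 8 enzyme genes, 5 were measured.

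The genes, lists and named-gene rule were chosen with earlier results of these data known. Named genes were the enzyme genes, Aire, Sirt1, up to 6 genes per list by largest difference from WT, and up to 5 genes of like pattern. Prss2, Ptf1a, Rbpjl, Bhlha15 and Pdx1 and chromosomal neighbours were named beyond it, for their role or position. Alternatives were quantile normalization, loess with a span of 0.3, median centring, averaged probe sets, 1.5-fold and 3-fold marks, the 99th and 50th percentiles as background, no brightness filter and exchanged knockout labels. The counting was tested on simulated data with known changes in genes well above background. Changes in dim genes, such as most of the enzyme genes, were not covered. Values were computed with statsmodels 0.14.6, pandas 2.3.3 and numpy 2.4.6 in Python 3.11.15 and drawn with matplotlib 3.10.9.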

Additional observations from a re-analysis of the deposited data

How the results depend on the processing

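Ctrb1 remained at least 2-fold lower in AireKO and in Sirt1cKO under each of 10 alternatives, and Ctrl did not reach 2-fold in any of them, with no fold in AireKO when background was the 99th percentile. Several alternatives could not have removed the Ctrb1 call. Each enzyme gene had 1 probe set, so averaging left the Ctrb1 values as they were, and the brightness filter does not enter the call. A 1.5-fold mark is easier to pass, and exchanged labels swap knockout libraries that were both lower. Cpa1, Cpb1 and Pnliprp1 had no fold except with background at the 50th percentile, where they were under 2-fold, and Pnliprp2 had none in most alternatives against AireKO, so nothing follows for these genes. Exchanging the knockout labels turned Clps to -0.37 in Sirt1cKO minus WT and to -1.45 in Sirt1cKO minus AireKO. With that exchange, 1 of the 8 genes was higher in AireKO and 0 in Sirt1cKO, each against WT, and between the knockouts 1 was lower and 0 higher. A mark of 1.5-fold gave 2 lower genes in Sirt1cKO, adding Cel, and 2 higher between the knockouts, adding Ctrb1, while a 3-fold mark gave 0 higher genes in both Sirt1cKO comparisons. Background at the 50th percentile gave 2 lower genes in AireKO and 2 in Sirt1cKO, adding Cel, so the call on Cel depends on where background is set. Over all measured genes, loess left 614 lower in AireKO in place of 922, and median centring left 449 lower with 672 higher in place of 306. Median centring also gave 196 lower and 166 higher between the knockouts, in place of 111 and 278. At 1.5-fold, AireKO had 2687 lower and 1015 higher and Sirt1cKO 1018 and 492, against 189 and 93 at 2-fold, with 530 and 1286 between the knockouts. At 3-fold, the counts were 188 and 71, 20 and 9, and 21 and 50. The motif counts of the promoters did not change in the 250 bases before the start site. No paired analysis was possible because each genotype had 1 library. With background highest in AireKO, dim genes are least resolved there.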

Other observations

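The endocrine pancreas shares an organ with the acinar enzymes but not a cell type. Of 14 islet genes with a probe set, 3 were at least 2-fold lower in AireKO and 2 in Sirt1cKO, beside 4.62% and 0.948% of all genes, and 0 were higher. Medians over the 14 were -0.03 in AireKO and -0.06 in Sirt1cKO, and 7 of 14 were below 0 in AireKO. No fold could be given for 7 of the 14 in AireKO and 5 in Sirt1cKO, so these medians include genes within background. Iapp, the amylin gene, named here after its value was seen, was bright and differed from WT by -0.07 in AireKO and 0.17 in Sirt1cKO. Ppy, the pancreatic polypeptide gene, stood at 8.16 in AireKO, 10.12 in Sirt1cKO and 10.64 in WT, and Sst, which encodes somatostatin, at 8.37 in AireKO, 9.53 in Sirt1cKO and 10.35 in WT. Pyy, the peptide YY gene, was lower in both knockouts, at -1.93 in AireKO and -1.60 in Sirt1cKO. Gcg, which encodes glucagon, stood at 7.73 in AireKO, 7.53 in Sirt1cKO and 8.67 in WT, which is -0.94 for AireKO and -1.13 for Sirt1cKO against WT.

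The gut-side partners of the pancreatic enzymes, such as brush-border peptidases and disaccharidases, had 0 of 14 genes past 2-fold in either comparison with WT. A fold could be given for 9 of them. Over all genes, 4.62% were lower and 1.53% higher in AireKO, and 0.948% and 0.466% in Sirt1cKO, so 0 of 9 does not set them apart. Related lipases and carboxypeptidases of other tissues had 7 of 27 at least 2-fold lower in AireKO, beside 4.62% of all genes, and 0 of 27 in Sirt1cKO. No fold could be given for 14 of the 27 in AireKO and 8 in Sirt1cKO. The 7 were 4 after quantile normalization, 5 after loess and 3 after median centring. The carboxypeptidase gene Cpm led them at 6.82 in AireKO, within background, 8.74 in Sirt1cKO and 8.97 in WT. Of 7 pancreatic duct and stellate genes with a probe set, Krt19 was the 1 lower in AireKO, at -1.82, and 0 passed in Sirt1cKO. The shares of all genes lower were 4.62% and 0.948%.

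Of 14 genes that flank the 9 enzyme genes on the chromosome, 13 had a probe set. No fold could be given for 7 of these in either comparison, and 0 of the other 6 were past 2-fold in AireKO or Sirt1cKO. Over all genes, 4.62% were lower and 1.53% higher in AireKO, and 0.948% and 0.466% in Sirt1cKO, so 0 of 6 does not set them apart. Zfp1 and Bcar1, which flank Ctrb1, differed from WT by 0.14 and -0.08 in AireKO and by 0.43 and 0.24 in Sirt1cKO. Ralgds and Gtf3c5, which flank Cel, differed by -0.43 and -0.50 in AireKO and by -0.37 and -0.15 in Sirt1cKO.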
